A study of Mus musculus with 6 samples.

Results

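The 10 genes of polyamine metabolism described here are *Amd1*, *Amd2*, *Odc1*, *Srm*, *Sms*, *Sat1*, *Azin1*, *Paox*, *Smox* and *Arg2*, which were taken by symbol from a table of 21367 genes. They were measured by mRNA sequencing in the left kidneys of 3 Ptpn6+/mev mice and 3 wild-type littermates, and each mouse gave 1 library. The heterozygotes have 1 viable motheaten copy of *Ptpn6*, which encodes the phosphatase SHP-1, in every tissue, and the labels call them an SHP1 knockdown. All 6 mice were 7 weeks old on a C57BL/6 background, and in each the right kidney was removed, the left pedicle was clamped for 34 min and the kidney was collected after 24 h of reperfusion, so that both groups share ischemia-reperfusion injury (IRI). Kidneys without IRI were not analysed here. The list was chosen by gene name with the measured FPKM values and false discovery rates (FDR) of this contrast known, among them that of *Amd2*, the lowest of all genes, so differences of the members between the groups are given as a description with no test.

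Polyamines (putrescine, spermidine and spermine) are small positively charged molecules that bind nucleic acids and are needed for cell growth. Ornithine decarboxylase (*Odc1*) makes putrescine, and S-adenosylmethionine decarboxylase (*Amd1* and *Amd2*) makes the aminopropyl donor with which spermidine synthase (*Srm*) and spermine synthase (*Sms*) lengthen the chain. Spermidine/spermine acetyltransferase (*Sat1*) with polyamine oxidase (*Paox*), or spermine oxidase (*Smox*) alone, run the pathway backwards and release hydrogen peroxide or reactive aldehydes. In the kidney, *Odc1* is known for its induction by androgens in mice, and *Sat1* for its induction by ischemia.

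*Amd1* (chromosome 10, 40287458 to 40302186, minus strand, GRCm38) and *Amd2* (chromosome 10, 35708675 to 35711892, minus strand) lie 4.59 Mb apart and are nearly the same in sequence. The *Amd1* transcript has 8 exons and 3204 bases and that of *Amd2* has 1 exon and 3218 bases. Of the 3204 aligned bases, 3190 were identical (99.6%). Of the 14 mismatches, 1 was in the 5′ UTR, 1 in the coding sequence and 12 in the 3′ UTR, and *Amd2* held 14 extra bases. The coding sequences are both 1005 bases long with the stop codon and differ by G796C, counted from the A of the start codon with the *Amd1* base first, which is the first base of codon 266. The stretch around it, bases 766 to 826 of the coding sequence, is shown because it is the only coding stretch where a read can tell the paralogs apart. It lies in exon 7 of *Amd1* (chr10:40290156-40290216) and exon 1 of *Amd2* (chr10:35710734-35710794), and the capital letter marks the difference.
Amd1: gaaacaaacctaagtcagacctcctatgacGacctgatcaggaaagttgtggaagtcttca
Amd2: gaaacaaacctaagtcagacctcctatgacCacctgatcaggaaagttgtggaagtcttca

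Most short stretches of the *Amd2* transcript therefore occur also in *Amd1*: 85.7% of its 50-base windows, 61.6% of its 150-base windows and 53.8% of its 200-base windows. A read from such a window cannot be assigned to either paralog by its sequence. Both transcripts also begin with the same short upstream open reading frame of 6 codons and a stop, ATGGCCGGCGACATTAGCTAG (bases 12 to 32 of *Amd1* and 13 to 33 of *Amd2*), which is known for slowing translation of the enzyme when polyamines are plentiful.

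Upstream of the transcripts the paralogs part ways. The 100 bases before each start are shown, from RefSeq promoter windows on GRCm38.p6 (chr10:40302189-40302288 for *Amd1* and chr10:35711892-35711991 for *Amd2*, minus strand), with the letters TATAA in capitals.
Amd1: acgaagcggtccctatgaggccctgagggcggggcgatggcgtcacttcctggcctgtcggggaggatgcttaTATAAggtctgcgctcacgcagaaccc
Amd2: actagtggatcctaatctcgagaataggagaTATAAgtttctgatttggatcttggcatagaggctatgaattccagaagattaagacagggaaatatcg

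Over 250 bases before the start, the longest run the paralogs shared was 7 bases, and the GC content was 64.4% in *Amd1* and 37.6% in *Amd2*. TATAA began 27 bases before the start of *Amd1*, where a match on the opposite strand overlapped it, and 69 and 123 bases before that of *Amd2*. On either strand TATAA occurred in 24.9% of the 32851 promoter windows of 300 bases in the RefSeq table. CACGTG, the letters that MYC and MAX bind, occurred in 7.15% of the windows and in neither *Amd1* nor *Amd2*.

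Libraries held from 10271590 to 12361745 counts. Wild-type replicate 2 stood apart in its cell type markers: the summed FPKM (fragments scaled to transcript length and to library size) of 4 endothelial markers, led by *Pecam1*, was 44.6 there and 103 to 111 in the other 5 libraries, that of 4 fibroblast markers 34.3 against 92.9 to 162, and that of 5 macrophage markers 87.3 against 129.5 to 235. The androgen-induced gene *Kap* was at an FPKM of 10200.6 in it and at 1520 to 2882 elsewhere. Fitted values of the members are therefore given with and without this library. *Ptpn6* was at 11.8, 14.7 and 13.6 FPKM in Ptpn6+/mev mice and at 17.5, 10.9 and 15.4 in wild-type mice (log2 fold change -0.19, SE 0.17, adjusted p = 0.715, edgeR; -0.34 without wild-type replicate 2, adjusted p = 0.201). The viable motheaten allele is a change at a splice site, so this level does not check the genotype.

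All 10 polyamine genes were expressed and passed the filter on low counts. In order of mean FPKM over the 6 mice they were *Odc1* (539), *Sat1* (310), *Srm* (53.1), *Azin1* (50.1), *Arg2* (43.8), *Smox* (26.4), *Amd1* (25.6), *Sms* (12.3), *Paox* (7.07) and *Amd2* (3.93). The ranges over the 6 mice of neighbours in this order overlapped, except between *Sat1* and *Srm*, *Amd1* and *Sms*, and *Sms* and *Paox*. *Odc1* ranked between 117 and 264 of all genes in every library and *Sat1* between 193 and 335, so the entry enzyme and the acetyltransferase were both among the most abundant transcripts of the injured kidney in either genotype.

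**Figure D1:**
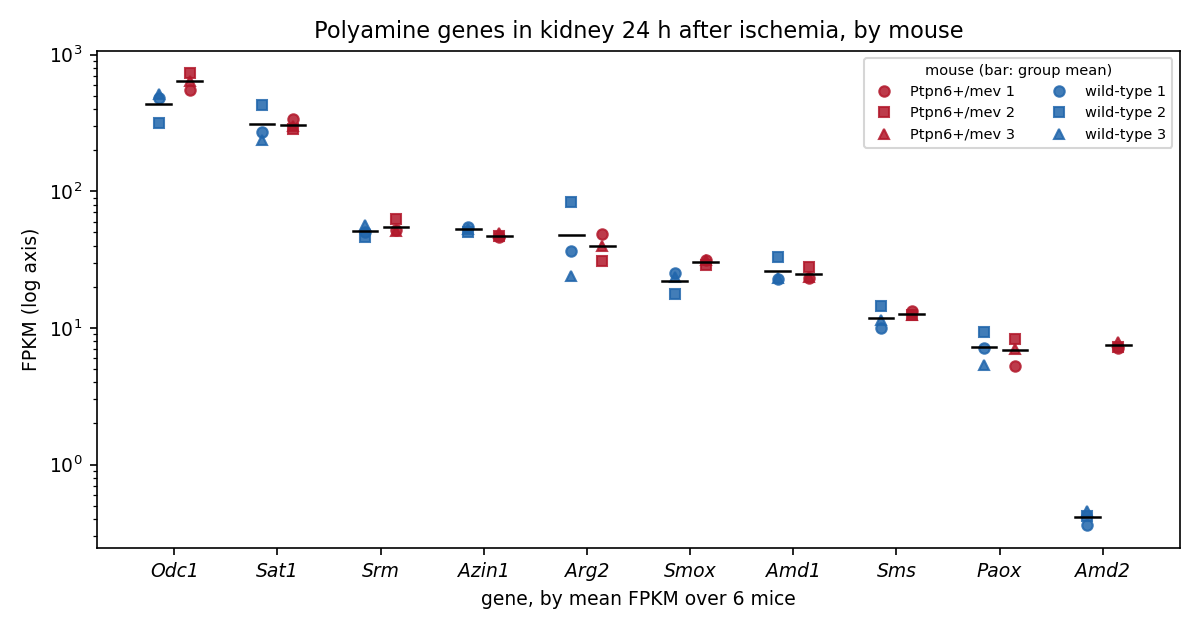
FPKM (log axis) of the 10 polyamine genes in each of the 6 mice, ordered by mean level; red points are Ptpn6+/mev and blue points wild-type mice, the marker shape is the replicate number and black bars are group means. *Odc1* and *Sat1* lie far above the rest, and *Amd2* is the gene whose groups lie farthest apart, at 7.16 to 7.90 against 0.36 to 0.46.

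At FDR under 0.05, 18 of 13036 tested genes were called (0.138%), of which 9 were higher (0.069%) and 9 lower (0.069%) in Ptpn6+/mev mice. Among the members 1 of 10 was called, *Amd2*, and nothing is read from this count because the list was chosen with that call known. By edgeR's exact test (2.99% of all genes) and by DESeq2 (3.04%), *Amd2* was again the 1 member called. By FPKM, the groups of 3 did not overlap in 4 members, with *Amd2*, *Odc1* and *Smox* higher and *Azin1* lower in Ptpn6+/mev mice. Among all tested genes the groups did not overlap in 20.4%, with 14% higher and 6.38% lower. RNA came from whole kidney, so fewer cells of a type and less RNA per cell cannot be told apart.

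*Amd2* was at 7.16, 7.27 and 7.90 FPKM in Ptpn6+/mev replicates 1 to 3 and at 0.36, 0.42 and 0.46 in wild-type replicates 1 to 3. The groups were far apart and each was tight, with means of 7.44 ± 0.40 and 0.41 ± 0.05 (SD, n = 3). The fitted log2 fold change was 4.11 (SE 0.18), and it stayed between 3.99 and 4.17 when any 1 library was left out. Wild-type *Amd2* rested on few counts, 12.4, 14.8 and 18.4, against 237, 243 and 275 in Ptpn6+/mev mice. The SE, which was derived from the F statistic of edgeR's test, may be too small at such counts.

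*Amd1*, the spliced paralog, was at 23.2, 28.1 and 23.5 FPKM in Ptpn6+/mev mice and at 22.7, 33.0 and 23.1 in wild-type mice. The groups overlapped, and the wild-type mean of 26.3 ± 5.81 against 25.0 ± 2.75 (SD, n = 3) took its highest value from wild-type replicate 2. The log2 fold change was -0.15 (SE 0.18), and 0.08 without that library.

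The counts of both paralogs were fractional in 6 of 6 libraries, whereas their sum was whole, within 0.01, in 6 of 6. The sum was 1005, 1181 and 1089 counts in Ptpn6+/mev mice and 799, 1178 and 937 in wild-type mice. *Amd2* took 23.6% (95% Wilson interval 21.1 to 26.3), 20.6% (18.4 to 23.0) and 25.2% (22.8 to 27.9) of it in Ptpn6+/mev mice. In wild-type mice the shares were 1.56% (0.861 to 2.61), 1.26% (0.773 to 2.09) and 1.97% (1.22 to 3.02). The intervals treat every estimated count as a read of known origin. They leave out the error of dividing shared reads and the spread between mice. They do not overlap between the groups, and nothing further is read from this. Whether reads of *Amd2* were assigned correctly was not tested, since reads were not used here.

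In CPM (counts scaled to the normalized library size), *Amd2* was at 23.5 ± 1.2 in Ptpn6+/mev and 1.37 ± 0.178 in wild-type mice (SD, n = 3), a difference of 22.1. *Amd1* was at 87.1 ± 23.4 in wild-type and 78.5 ± 8.91 in Ptpn6+/mev mice. The sum does not depend on how reads were divided between the paralogs. The annotation also holds 5 *Amd* pseudogenes, and whether reads of these were counted to either paralog was not tested. The sum was at 95.5, 112 and 98.5 in Ptpn6+/mev mice and at 74.6, 116 and 75.3 in wild-type mice. The groups overlapped through wild-type replicate 2, the highest of all 6, and the means were 102 ± 8.64 and 88.5 ± 23.5. Beside the 17.3-fold difference of *Amd2*, the pair differed 1.15-fold, and its log2 fold change was 0.20 (SE 0.18). Without wild-type replicate 2 it was 0.44 (SE 0.09).

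**Figure D2:**
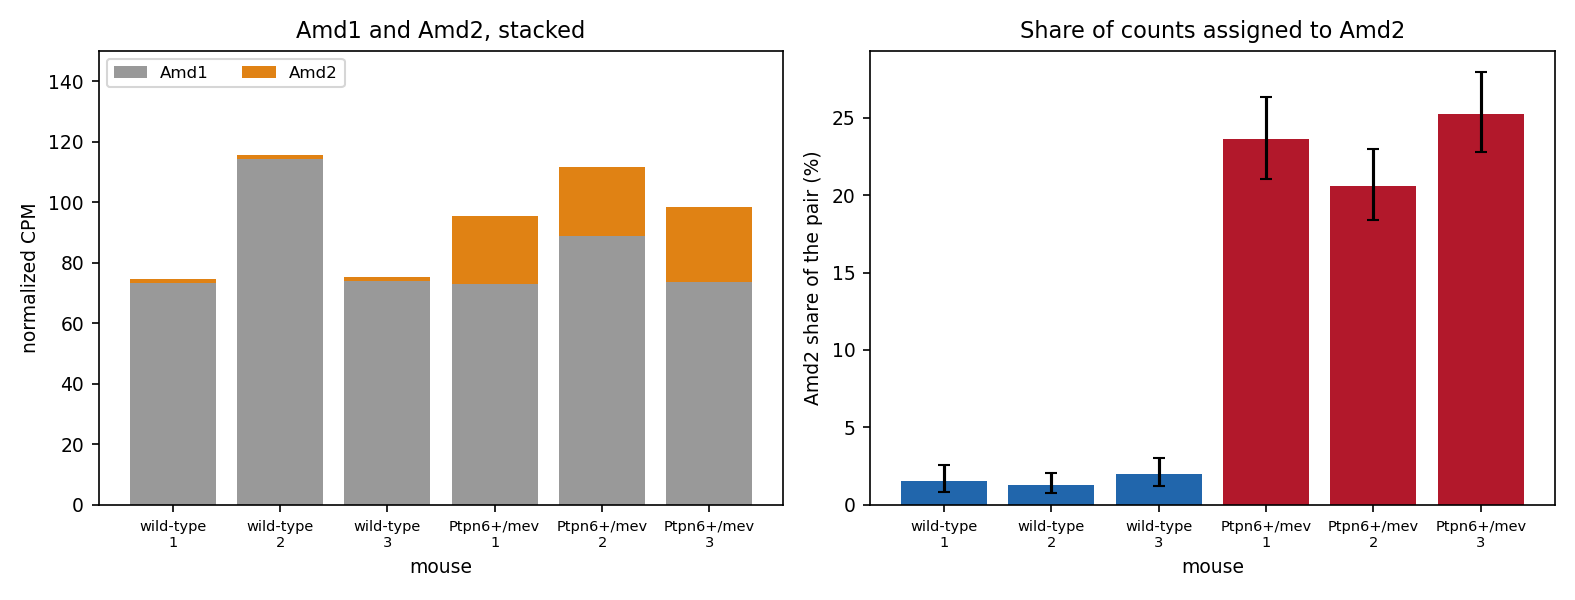
Left, normalized CPM of *Amd1* (grey) and *Amd2* (orange), stacked, in each mouse. Right, *Amd2* as a percent of the counts of both genes, with 95% Wilson intervals as bars, in wild-type (blue) and Ptpn6+/mev (red) mice; the share is 1.26 to 1.97% in the first and 20.6 to 25.2% in the second, while the stack is tallest in wild-type replicate 2.

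*Odc1* (chromosome 12, 17544794 to 17551505), the entry enzyme, was at 553, 730 and 639 FPKM in Ptpn6+/mev mice and at 484, 315 and 515 in wild-type mice. Every Ptpn6+/mev mouse lay above every wild-type mouse, and wild-type replicate 2 was the lowest. Means were 640 ± 88.5 and 438 ± 108 (SD, n = 3), with a log2 fold change of 0.49 (SE 0.17), and of 0.32 without wild-type replicate 2. *Azin1* (chromosome 15, 38487427 to 38519266), the antizyme inhibitor that spares ornithine decarboxylase from degradation, went the other way. It was at 45.9, 46.9 and 49.5 FPKM in Ptpn6+/mev mice and at 54.6, 50.2 and 53.4 in wild-type mice. By FPKM the groups did not overlap, though they came within 1 FPKM of each other. In counts scaled to the normalized library size they overlapped, with Ptpn6+/mev replicate 2 above wild-type replicate 3. The log2 fold change was -0.23 (SE 0.12), or -0.10 without wild-type replicate 2.

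Differences of the synthases were within the spread between mice. *Srm* (chromosome 4, 148591503 to 148594993) was at 51.7, 63.1 and 50.9 FPKM in Ptpn6+/mev mice and at 50.4, 46.1 and 56.5 in wild-type mice. *Sms* (chromosome X, 157443855 to 157492287) was at 13.4, 12.5 and 12.4 FPKM in Ptpn6+/mev mice and at 9.92, 14.4 and 11.5 in wild-type mice. Both groups overlapped for each gene, with log2 fold changes of 0.05 (SE 0.11) for *Srm* and 0.02 (SE 0.16) for *Sms*, which were 0.01 and 0.21 without wild-type replicate 2.

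Of the enzymes that run the pathway backwards, *Smox* (chromosome 2, 131491496 to 131525922) was the one whose groups were apart. Its FPKM was 31.3, 28.9 and 31.4 in Ptpn6+/mev mice and 25.1, 17.9 and 23.7 in wild-type mice, with means of 30.6 ± 1.41 and 22.2 ± 3.84 (SD, n = 3). The log2 fold change was 0.40 (SE 0.11), and lay between 0.33 and 0.47 with any 1 library left out. *Sat1* (chromosome X, 155213132 to 155216449) was at 337, 286 and 298 FPKM in Ptpn6+/mev mice and at 271, 428 and 238 in wild-type mice. Its wild-type values were the wider and enclosed the others, with a log2 fold change of -0.08 (SE 0.24), which was 0.28 without wild-type replicate 2. *Paox* (chromosome 7, 140115799 to 140137224) was at 5.31, 8.24 and 6.99 FPKM in Ptpn6+/mev mice and at 7.14, 9.42 and 5.32 in wild-type mice, and the groups overlapped with a log2 fold change of -0.21 (SE 0.21), or 0.01 without wild-type replicate 2.

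*Arg2* (chromosome 12, 79130777 to 79156301), the mitochondrial arginase that supplies ornithine, varied most among wild-type mice. It was at 48.6, 30.9 and 40.1 FPKM in Ptpn6+/mev mice and at 36.5, 82.8 and 23.9 in wild-type mice. The log2 fold change was -0.36 (SE 0.43) with all libraries and 0.36 (SE 0.21) without wild-type replicate 2, so that 1 library set its sign.

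Wild-type replicate 2 was the extreme library for 8 of the 10 members, the highest for *Amd1*, *Sms*, *Sat1*, *Paox* and *Arg2* and the lowest for *Odc1*, *Srm* and *Smox*. Without it, the fitted differences of *Amd1*, *Sat1*, *Paox* and *Arg2* changed sign, and *Amd2* remained the 1 member called, beside 1.8% of all genes. The low endothelial, fibroblast and macrophage markers and the high *Kap* of this library moved with these values, and their part in them was not tested. For all genes, how often wild-type replicate 2 was the extreme library, or changed a sign when left out, was not counted here. The 8 of 10 members and the changes of sign are therefore not read as particular to polyamine genes.

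**Figure D3:**
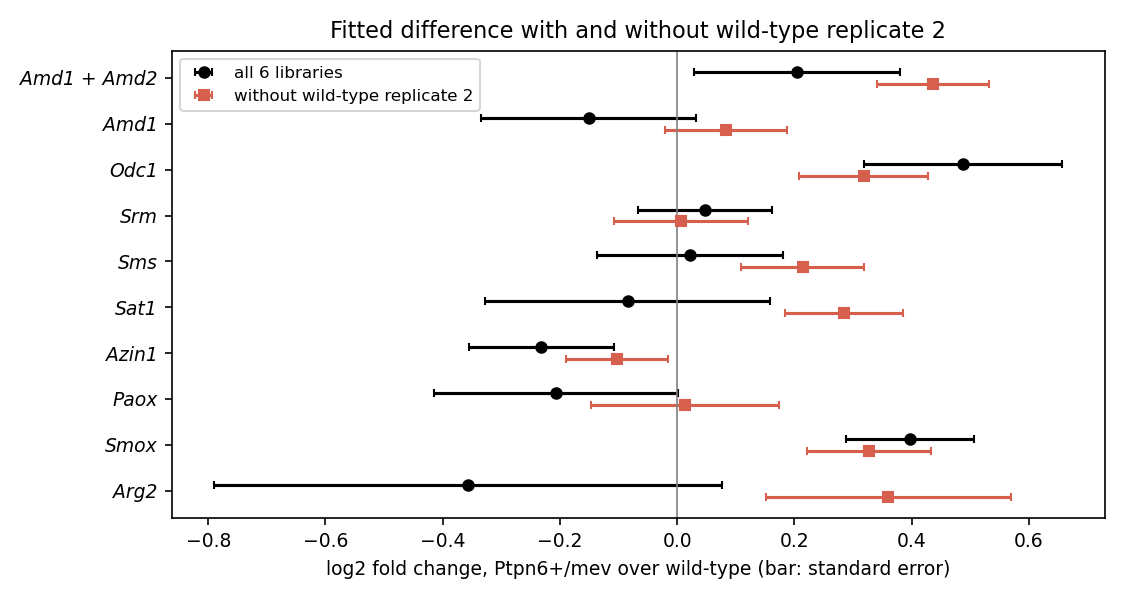
Fitted log2 fold change of Ptpn6+/mev over wild-type mice for 9 members and for the summed counts of *Amd1* and *Amd2*. Fits are with all 6 libraries (black circles) and without wild-type replicate 2 (red squares). Bars are SE derived from the F statistic, and *Amd2* itself, at 4.11, is left out for scale. *Odc1* and *Smox* lie to the right of 0 in both fits, whereas *Arg2* moves from -0.36 to 0.36.

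Sex and androgen genes were read because *Odc1* responds to androgens in mouse kidney. *Ddx3y* (2.17 to 4.68 FPKM), *Eif2s3y* (3.67 to 10.8), *Kdm5d* (2.11 to 2.29) and *Uty* (1.15 to 2.15), all Y-linked, were present in 6 of 6 libraries, each with overlapping groups. Of 5 androgen-responsive genes 0 were called (0.138% of all tested genes), with 1 at an unadjusted p under 0.05 (12.2% of all). *Cyp4b1* was at 339 ± 16.6 FPKM in Ptpn6+/mev and 416 ± 38.3 in wild-type mice (SD, n = 3), with a log2 fold change of -0.37 and an adjusted p of 0.209 by edgeR. The groups overlapped for *Kap* (log2 fold change -0.99), *Slco1a1* (0.01), *Cyp2j13* (0.18) and *Gusb* (0.11). Without wild-type replicate 2 these values were 0.33, 0.58, 0.14 and -0.0007 in the same order, so that the sign of *Kap* and *Gusb* turned.

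Genes around the paralogs were read from the same fit. Within 1 Mb of the *Amd2* start 0 genes were tested, and within 5 Mb, *Amd1* aside, 30 were tested. By edgeR's quasi-likelihood test 0 of these 30 were called (0.138% of all tested genes), with 5 at an unadjusted p under 0.05 (12.2% of all). The exact test (2.99% of all) and DESeq2 (3.04%) called 1 each. The median log2 fold change of the 30 was 0.09, beside -0.002 over all tested genes, and their range was -0.52 (*Mfsd4b1*, adjusted p = 0.0774) to 0.70 (*Mettl24*). Without wild-type replicate 2, 2 of them were called (1.8% of all genes), *Mfsd4b1* and *Mfsd4b5* (named after their values were seen). The nearest genes in the table were *Hs3st5*, a heparan sulfate sulfotransferase gene at no more than 0.04 FPKM, and *Frk*, a tyrosine kinase gene 1228 kb away at 5.42 ± 0.25 FPKM in Ptpn6+/mev and 5.47 ± 1.92 in wild-type mice. Around *Amd1*, 15 genes were tested within 1 Mb and 0 were called by the quasi-likelihood test. Of these, 3 had an unadjusted p under 0.05, and the exact test and DESeq2 called 1 each, beside the same shares of all genes. The nearest neighbours of *Amd1* had log2 fold changes of 0.14 (*Gtf3c6*, adjusted p = 0.678) and 0.25 (*Cdk19*, adjusted p = 0.398), both from edgeR.

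**Figure D4:**
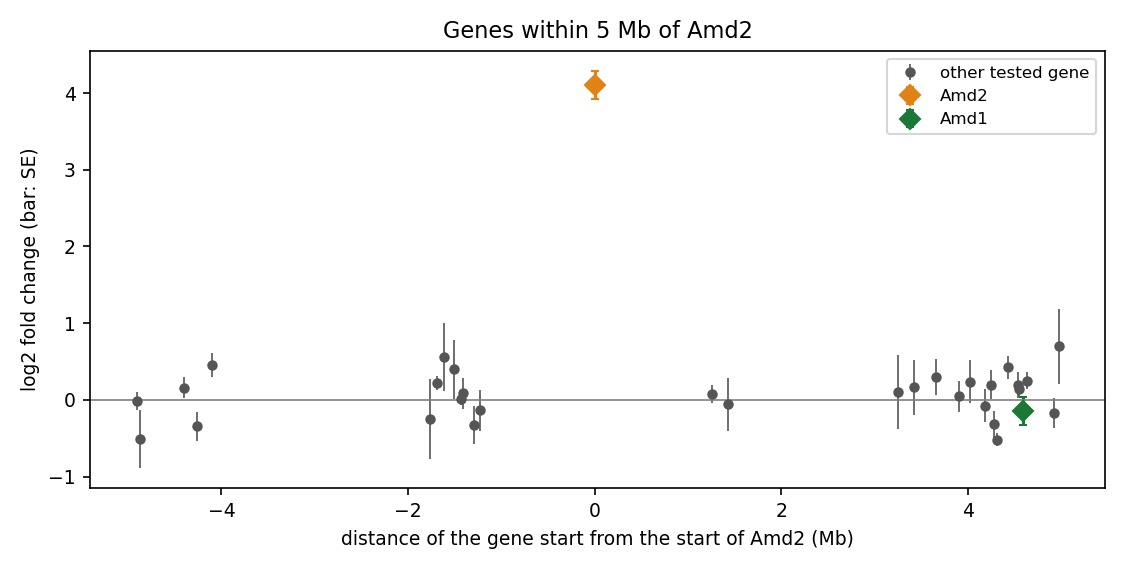
Fitted log2 fold change of Ptpn6+/mev over wild-type mice against distance from the start of *Amd2*. Shown are *Amd2* (orange), *Amd1* (green) and the 30 other tested genes within 5 Mb (grey). Bars are SE derived from the F statistic. *Amd2* stands at 4.11, and the other tested genes lie between -0.52 and 0.70.

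A further 47 genes of the pathway, listed by function and not by how they moved, held no gene past the threshold. Of the 42 tested, 0 were called by edgeR's quasi-likelihood test (0.138% of all tested genes). An unadjusted p under 0.05 was reached by 4 (12.2% of all), all lower in Ptpn6+/mev mice (*Oaz2*, *Slc25a15*, *Aldh9a1* and *Mri1*, named after their values were seen). The exact test called 0 (2.99% of all), and DESeq2 called 1, *Aldh9a1* (3.04% of all). The median log2 fold change of the 42 was -0.02, and they ranged from -0.46 (*Mri1*) to 0.46 (*Mycn*). FPKM groups did not overlap in 9 of the 42, 6 higher and 3 lower, beside 20.4% of all tested genes. *Otc*, *Slc25a2*, *Oaz3*, *Satl1* and *Mat1a* held at most 2 counts in all and were not tested.

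Among 7 tested antizymes and transporters the median log2 fold change was -0.11. *Oaz1*, the antizyme that targets ornithine decarboxylase for degradation, was at 496 ± 8.20 FPKM in Ptpn6+/mev and 476 ± 16.1 in wild-type mice (SD, n = 3; log2 fold change -0.02). The mean FPKM of *Odc1* was above that of *Oaz1* in Ptpn6+/mev mice (640) and below it in wild-type mice (438). The order of the wild-type means came from wild-type replicate 2, with *Odc1* at 315 and *Oaz1* at 495. In wild-type replicates 1 and 3 *Odc1* was above *Oaz1*, at 484 against 469 and at 515 against 465. *Oaz2*, a second antizyme, was at 66.9 ± 2.14 and 75.2 ± 4.30 (log2 fold change -0.24, adjusted p = 0.304), and *Slc3a2*, the heavy chain of an amino acid transporter, at 128 ± 8.36 and 136 ± 25.1 (log2 fold change -0.16).

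Arginine and ornithine supply had a median log2 fold change of -0.01 over 14 tested genes, and of -0.18 without wild-type replicate 2. *Ass1* and *Asl*, which make arginine in the proximal tubule, had log2 fold changes of -0.13 and 0.17, and *Oat*, which uses ornithine, of 0.01. In the methionine cycle, which feeds the decarboxylase with S-adenosylmethionine, the median over 10 tested genes was -0.09. *Mat2a*, the enzyme that makes it, was at 76.6 ± 2.97 FPKM in Ptpn6+/mev and 89.9 ± 22.4 in wild-type mice (log2 fold change -0.34, and 0.02 without wild-type replicate 2). *Ahcy* had a log2 fold change of -0.21, and *Mat2b*, the regulatory subunit, of 0.18 with groups that did not overlap (adjusted p = 0.462).

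Of 3 tested breakdown genes, *Aldh9a1*, which oxidizes aminobutyraldehyde from putrescine, was at 96.6 ± 2.66 FPKM in Ptpn6+/mev and 115 ± 3.32 in wild-type mice. Its groups did not overlap (log2 fold change -0.32, adjusted p = 0.185 by edgeR). *Aoc1*, diamine oxidase, had a log2 fold change of 0.22 and *Sat2* of -0.33, and the median was -0.32. *Eif5a*, the translation factor that carries the spermidine-derived residue hypusine, was at 741 to 969 FPKM over the 6 mice, with a log2 fold change of 0.02. *Dhps* and *Dohh*, which make hypusine, had log2 fold changes of -0.12 and 0.02. The MYC family, which drives *Odc1* transcription in growing cells, had log2 fold changes of 0.13 (*Myc*), 0.12 (*Max*) and 0.46 (*Mycn*, at 1.46 to 2.87 FPKM), and of -0.08 for *Mycl*.

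**Figure D5:**
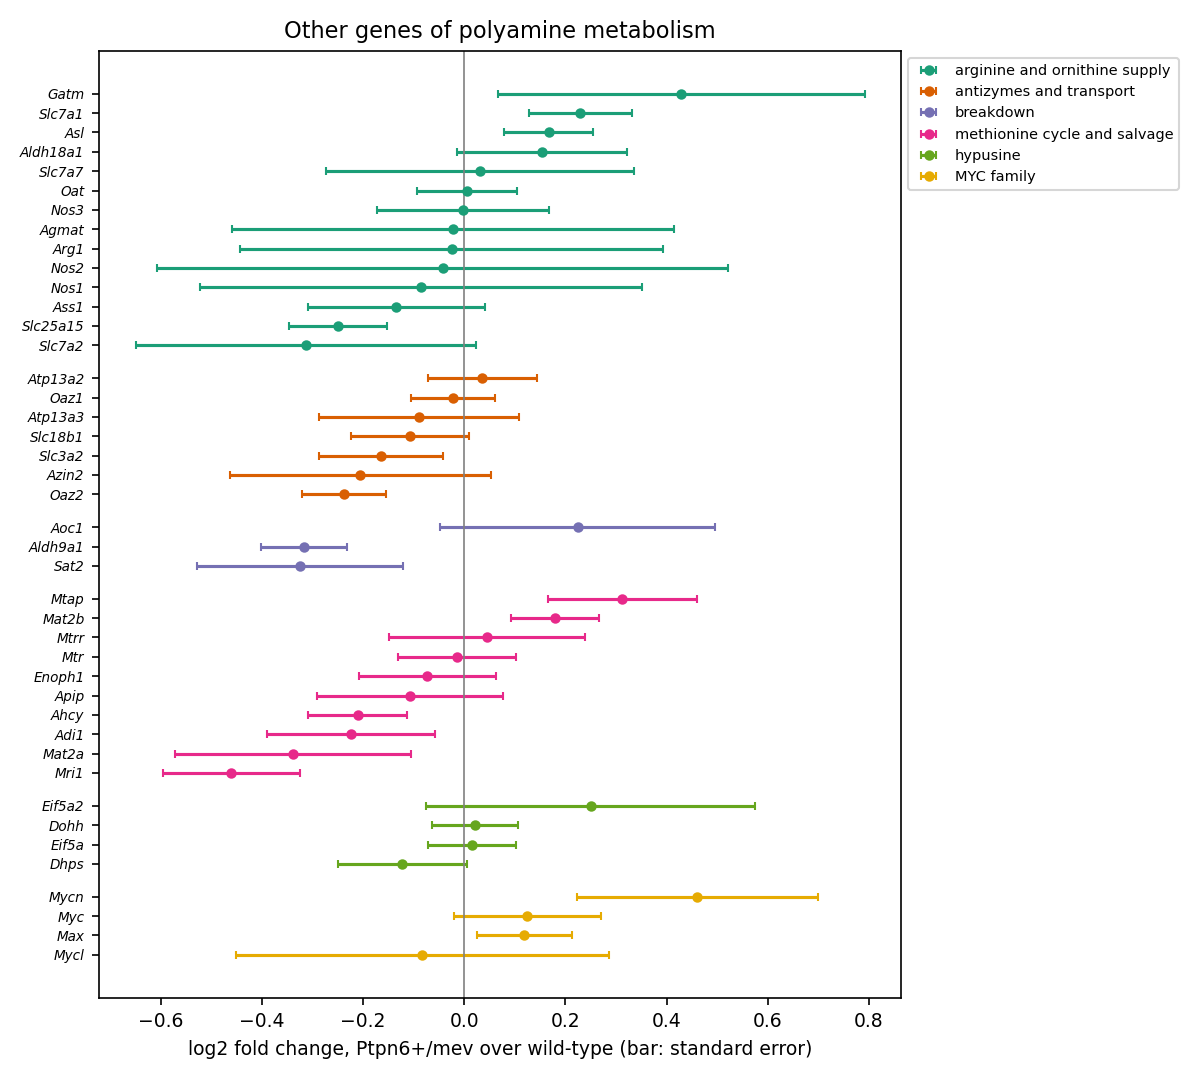
Fitted log2 fold change of Ptpn6+/mev over wild-type mice for 42 tested genes of polyamine metabolism outside the 10 members, coloured by function. Bars are SE derived from the F statistic. Values lie on both sides of 0, from -0.46 to 0.46.

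Marker genes bear on the tissue from which the polyamine transcripts came. Proximal tubule markers, the most abundant of which was *Slc34a1*, were present in 6 of 6 libraries, and their summed FPKM was 425 to 550 in Ptpn6+/mev and 579 to 761 in wild-type mice, with a median log2 fold change of -0.44 over 7 genes. The injured tubule markers, led by *Lcn2*, summed to 2936 to 3977 and 2401 to 3657, with a median of 0.16 over 5 genes. The most abundant distal nephron marker, *Umod*, was at 2120 ± 466 FPKM in Ptpn6+/mev and 2191 ± 33.7 in wild-type mice (SD, n = 3), and those of macrophages (*Lyz2*), neutrophils (*S100a9*), fibroblasts (*Col3a1*), blood (*Hbb-bs*) and liver (*Ttr*) had log2 fold changes of 0.42, 0.02, -0.11, 0.09 and 0.31. Without wild-type replicate 2 these were 0.14, -0.14, -0.58, -0.17 and 0.54. The medians of the macrophage, neutrophil, fibroblast and blood lists were 0.23, 0.02, -0.11 and 0.12. Without this library the medians were -0.09, -0.14, -0.59 and -0.10, so that the macrophage median turned negative while *Lyz2* did not. The liver list as a whole had a median of -0.47 over 3 genes, with *Alb* lowest at -1.49 (adjusted p = 0.0852, edgeR; named after its value was seen). Lymphocyte markers, led by *Nkg7*, summed to at most 2.2 FPKM and were too low to test. Of 58 markers in 13 lists 53 were tested, and 0 were called by the quasi-likelihood test, with 11 at an unadjusted p under 0.05 (12.2% of all tested genes), 5 called by the exact test (2.99% of all) and 5 by DESeq2 (3.04%). Without wild-type replicate 2, 7 were called lower, 4 of them proximal tubule markers, and 1 higher, beside 1.8% of all genes called in that fit. Their part in the levels of *Odc1*, *Smox* and *Azin1* was not tested.

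The genes whose pattern over the 6 libraries was most like that of *Amd2*, by Pearson's r of log2(FPKM + 1) among 11852 genes, were *Dynlt1b* (r = 0.999), *Ndc1* (0.995) and *Cldn1* (0.994). As the 6 points fall into the 3 mice of each genotype, such an r mostly restates that the groups were tight and apart. Those most like *Odc1* were *Ccnf*, *Pola2* and *Mcm6* (r = 0.997 each), a cyclin gene and genes of DNA replication. Like *Odc1*, each had groups that did not overlap and its lowest value in wild-type replicate 2, which such an r mostly restates. A link between these genes and *Odc1* was not tested. *Mcm6* was at 42.1, 59.1 and 49.4 FPKM in Ptpn6+/mev mice and at 35.0, 20.0 and 35.4 in wild-type mice, with its lowest value in the same library as *Odc1*. Those most like *Sat1* were *Uba3* (r = 0.999), *Aig1* (0.991) and *Aftph* (0.990), each highest in wild-type replicate 2.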

How the data were processed

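Kidney mRNA of 3 Ptpn6+/mev and 3 wild-type mice was enriched for poly-A, made into libraries and sequenced. The authors cleaned the reads, ran TopHat against GRCm38.p5 and then Cufflinks; the submitters' processing notes also name Bowtie2, TopHat2 and RSEM, with no role. The authors deposited 1 table with estimated counts (expected counts, fractional for 1744 of 21367 genes) and FPKM values per library. Total counts were 10271590 to 12361745. Which tool divided shared reads is not given in the sources used here.

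Estimated counts were rounded to whole numbers and fitted in edgeR 4.0.16 (R 4.3.3, filterByExpr, TMM) with its quasi-likelihood test; Benjamini-Hochberg adjustment covered 13036 genes; an FDR under 0.05 was a call. *Amd1* and *Amd2* were also summed before fitting. The SE of an edgeR fit is the absolute log2 fold change divided by the square root of the quasi-likelihood F statistic. It was derived from the test and is not the standard error of the fitted coefficient. DESeq2 1.42.0, edgeR's exact test, limma 3.58.1 on log2(FPKM + 1) or log2(FPKM + 0.1), other normalizations and filters, the replicate block and each library left out were the 15 alternatives. Summaries and figures used Python 3.11.15, pandas 2.3.3 and matplotlib 3.10.9. The tests were tested on simulated counts for 13036 genes of this contrast with 200 changed: the main test recovered 74% of 2-fold and 96% of 4-fold changes, with 6.59% false calls, against 17.2% false calls for the exact test and 16.4% for DESeq2. Nothing in the labels says more of the replicates than that they are separate mice, so p-values measure the spread between these mice. Positions, transcripts and sequences come from GENCODE M21 (GRCm38), and promoters from RefSeq.

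The members and lists were chosen with earlier results of these data known. Genes named were the members, *Ptpn6*, the 3 most abundant tested genes of each function list (and any called), the nearest gene on each side of *Amd1* and *Amd2*, the 3 genes most like *Amd2*, *Odc1* and *Sat1* with a mean FPKM of at least 1, the most abundant markers, and the sex and androgen genes. Other names were chosen after their values were seen. The value of 1 marker that this rule would name is not reported here.

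Replicate numbers were not treated as pairs in the main test, and the sources used here do not say whether same-numbered mice belong together. Deviations of same-numbered libraries from their group means correlated at -0.144, -0.184 and -0.130, and those of the other pairs at -0.0101 to 0.158. Deviations within a group balance out, so these values cannot decide whether the mice were paired.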

Additional observations from a re-analysis of the deposited data

How the results depend on the processing

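Of 150 member values under the 15 alternatives, 10 changed sign, in 6 of the 10 members: *Amd1*, *Sat1*, *Paox* and *Arg2* without wild-type replicate 2, *Sat1* also in both limma fits, *Srm* without Ptpn6+/mev replicate 2, and *Sms* without Ptpn6+/mev replicate 1, wild-type replicate 1 or wild-type replicate 3. *Amd2*, whose call was known when the list was chosen, had a log2 fold change of 2.58 with limma on log2(FPKM + 1) and 3.88 on log2(FPKM + 0.1), and no other member was called under any of the 15. The 18 calls over all genes became 388 with DESeq2, 390 with edgeR's exact test, 52 with no filter on low counts, and 1 to 237 with 1 library left out. With the replicate number as a block, 1 gene was called, and the sum of *Amd1* and *Amd2* had a log2 fold change of 0.23. The pathway genes outside the members had 1 call with DESeq2. Leaving out 1 library moved the sum's log2 fold change between 0.09 and 0.44. The cause of these shifts was not tested. The *Amd2* share was nearly the same from FPKM, 23.1% in Ptpn6+/mev against 1.59% in wild-type mice. As the transcripts are of nearly equal length, this does not check how reads were divided. Wild-type *Amd2* rests on 12.4 to 18.4 counts a library, and 3 mice a group cannot give an exact permutation p under 0.1.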
